A study of Mus musculus with 13 samples.

Results

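The antiviral interferon response genes form a set of 44 mouse genes whose transcription rises when cells meet interferon, and here the set is followed through implantation sites of mouse uteri that carried mouse or rat embryos. Each member was read from the probe sets whose platform gene symbol is that member alone. Of the 44 genes, 41 had such a probe set, and together they had 67 of the 45101 probe sets on the array. Oas1g, Isg15 and Ifi44 had none and are not analysed here. After a filter on low signals, 39 members with 57 probe sets were tested, while Mx2 and Socs1 stayed below the filter. Mx1 passed it through the day 9 rat sites alone, so a high value there was a condition of its being tested. Where a member had several tested probe sets, the one with the highest mean log2 level stands for it.

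Whole implantation sites, which are the embryo and the uterine tissue enclosing it, were profiled on 13 Affymetrix mouse arrays. All recipients were ICR females on day 3 of pseudopregnancy, and nothing in the labels names a mutation or a drug in any group. Mouse embryos came from day 4 of pregnancy and Wistar rat embryos from day 5. The groups were sites of mouse embryos (mouse sites, the study's controls), sites of rat embryos transferred alone (rat sites) and sites of rat embryos in uteri that also received mouse embryos (co-transfer sites), each on day 7 and day 9. There were 3 arrays for co-transfer sites of day 7 and 2 for every other group. Nothing states how many animals or sites stood behind an array, so the p-values measure only how far these samples spread, and that spread may be technical. The array carries mouse probes, and signal from rat embryo tissue was not separated from that of the mouse uterus. In whole tissue, fewer cells of a type and less RNA per cell cannot be told apart.

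The arrays had been scaled to a trimmed mean of 500 and had median signals of 141 to 205. Arrays of a group correlated at r = 0.968 to 0.982 over probe sets, and probe sets are no replicates. The day 7 mouse sites had Gapdh 3' to 5' ratios of 1.44 to 1.54 against 2.56 to 4.07 on the other arrays, while their Actb ratios, at 3.47 to 3.71, were above the 2.36 to 3.34 of the others. The middle 18S rRNA probe set read 6209 and 6737 in day 9 rat sites and at most 1933 elsewhere. The day 7 rat arrays also stood apart, in single probe sets: Tmem14c had a mean signal of 129.7 there and of 664 to 1499 in the other groups, and 3 probe sets of the histocompatibility gene H2-D1 had means of 1549, 1714 and 1960 there and of at most 317 in the others. Both arrays shared this, so every difference from day 7 rat sites below rests on arrays that stand apart, and its part in those differences was not tested. The day 7 mouse arrays and day 9 rat arrays stood apart in the control probe sets given above. The part of that in their differences was not tested either. By recorded hybridisation times the arrays fell into 4 runs. Mouse and rat sites of day 7 shared a run, and so did rat and co-transfer sites of day 9. In the other comparisons run and group cannot be told apart.

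Interferons are secreted by cells that detect foreign nucleic acid or, for interferon gamma, by activated natural killer and T cells. Type I and type III interferons act through STAT proteins joined to IRF9 on the interferon-stimulated response element (ISRE), and interferon gamma acts through STAT dimers on the gamma-activated sequence (GAS). The genes they switch on detect, degrade or trap viral RNA and proteins, and many of them are also expressed in the uterus around implantation.

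RefSeq promoter windows on GRCm38.p6, from 250 bases before to 50 bases after a gene's start, were available for 34 of the 44 members, 42 windows in all. The ISRE core (GAAA, any 2 bases, GAAA), searched on both strands, was present in 15 of the 34 genes (44.1%), against 3.99% of 27025 genes and 3.44% of all 32851 windows. The GAS core TTCNNNGAA, which reads the same on both strands, was present in 10 of the 34 (29.4%), against 9.55% of genes and 8.3% of windows. These letter matches are a description of the windows, not evidence of binding. Shown here are Ifit3 and Ifit1, which hold ISRE matches and have the widest range of group means among members with a match and a probe set, then Irf1, a gene known as a target of interferon gamma, and Samhd1, the member that moved against the others. Capitals mark ISRE matches (on the minus strand, so they read as the reverse complement) in the first pair and GAS matches in the second pair. The windows are chr19:34583279-34583578 on the plus strand for Ifit3, with matches at -156 and -122 relative to the start, and chr19:34640639-34640938 on the plus strand for Ifit1, with matches at -104 and -85. Irf1 is on the plus strand at chr11:53769764-53770063 with its match at -90, and Samhd1 on the minus strand at chr2:157135047-157135346 with its match at -235.
Ifit3: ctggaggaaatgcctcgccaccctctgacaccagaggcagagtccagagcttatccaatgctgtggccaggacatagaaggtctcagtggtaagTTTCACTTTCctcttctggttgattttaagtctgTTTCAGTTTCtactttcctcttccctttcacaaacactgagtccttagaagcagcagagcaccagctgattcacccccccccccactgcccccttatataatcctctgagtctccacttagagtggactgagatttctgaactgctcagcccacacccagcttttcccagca
Ifit1: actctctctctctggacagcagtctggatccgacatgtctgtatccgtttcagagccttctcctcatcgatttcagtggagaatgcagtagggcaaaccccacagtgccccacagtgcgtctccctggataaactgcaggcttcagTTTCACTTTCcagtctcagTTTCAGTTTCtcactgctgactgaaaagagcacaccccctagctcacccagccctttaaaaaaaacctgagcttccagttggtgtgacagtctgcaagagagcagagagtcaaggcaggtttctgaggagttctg
Irf1: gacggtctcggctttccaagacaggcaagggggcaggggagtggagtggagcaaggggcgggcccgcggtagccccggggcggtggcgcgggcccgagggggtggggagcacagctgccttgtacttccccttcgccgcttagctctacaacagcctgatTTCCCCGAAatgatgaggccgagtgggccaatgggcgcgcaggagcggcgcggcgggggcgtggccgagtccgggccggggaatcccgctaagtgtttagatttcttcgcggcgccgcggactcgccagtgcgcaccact
Samhd1: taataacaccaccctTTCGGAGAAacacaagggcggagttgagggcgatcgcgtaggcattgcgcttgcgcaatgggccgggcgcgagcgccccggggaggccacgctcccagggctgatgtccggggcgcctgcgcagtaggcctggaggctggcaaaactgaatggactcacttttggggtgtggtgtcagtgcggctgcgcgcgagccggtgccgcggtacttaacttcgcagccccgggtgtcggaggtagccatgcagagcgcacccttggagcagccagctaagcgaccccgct

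Across the 6 groups the day 9 rat sites stood highest for most of the set. Their group mean was the highest of the 6 for 36 of the 41 members, whereas 26.0% of all tested probe sets had their highest mean there. Mx2 and Socs1, which were not tested, are among the 36. The exceptions were Dhx58, Irf8 and Isg20, highest in mouse sites of day 9, Ifitm1, highest in mouse sites of day 7, and Samhd1, highest in co-transfer sites of day 9. The day 7 rat sites had the lowest mean for 23 members (14.3% of tested probe sets), among them Zbp1, Irf1, Oasl2, Ifi47 and Usp18. The median log2(signal + 57.1) over the 41 members was 10.83 and 10.99 on the day 9 rat arrays. It was 9.96 and 9.98 in co-transfer sites and 9.66 and 9.74 in mouse sites of that day. On day 7 it was 9.05 and 9.04 in mouse sites, 9.01 and 8.96 in rat sites, and 9.25, 9.23 and 9.30 in co-transfer sites. The arrays of day 9 rat sites did not overlap those of any other group on this scale.

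**Figure D1:**
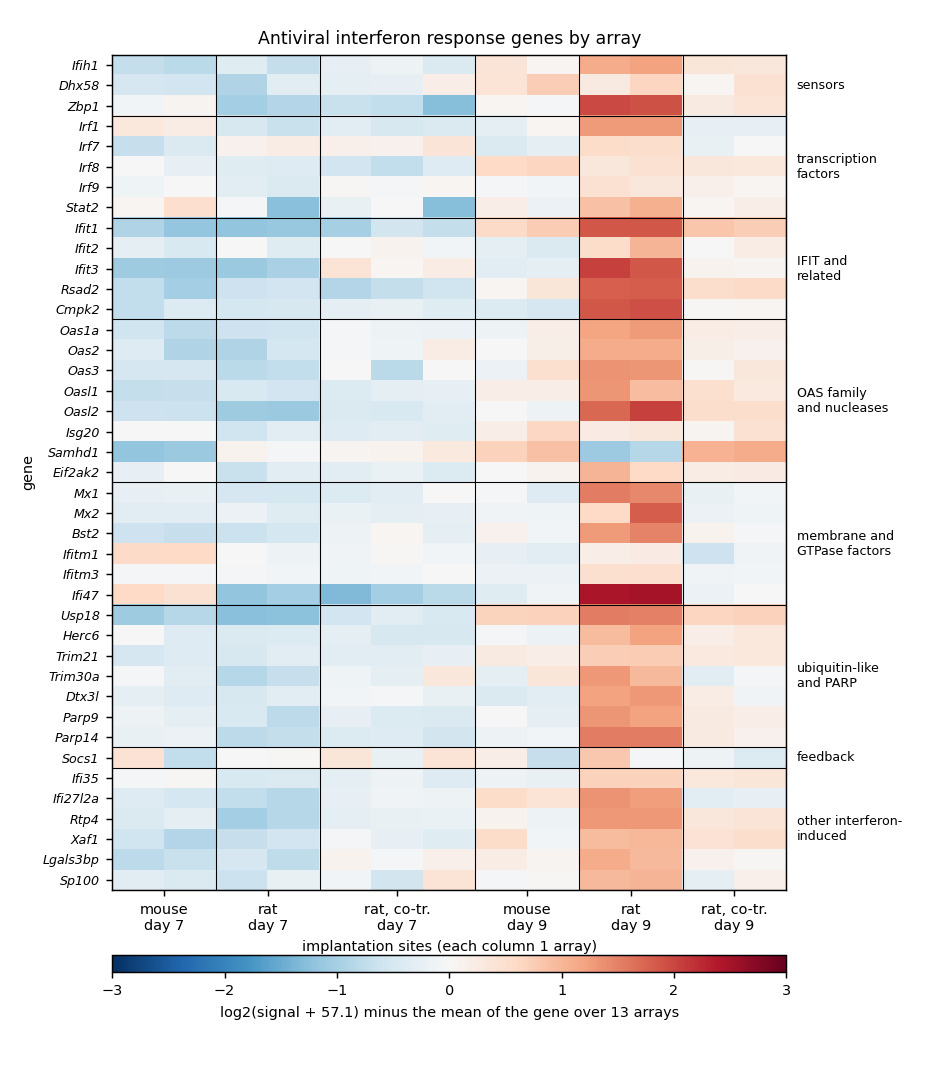
Log2(signal + 57.1) of the 41 members (rows, by role) on the 13 arrays (columns, by group), each gene centred on its mean over the arrays. Red is above and blue below that mean, and the columns of the day 9 rat sites are red for nearly every row, with Samhd1 blue.

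The first comparison set day 9 rat sites against the mouse controls. Of the 39 tested members, 34 were higher in rat sites and 1 was lower by limma at an adjusted p under 0.05. This and every later difference is in log2(signal + 57.1), the first-named group minus the second, and 57.1 is added to steady dim signals. Over all 22138 tested probe sets 31.5% were called in this comparison, 17.1% higher and 14.4% lower. The median log2 difference over the 41 members was 1.03, against 0.06 over all tested probe sets. The largest differences were those of Ifi47, an immunity-related GTPase, at 2.71, Cmpk2 at 2.37 and Ifit3 at 2.25. Samhd1 was lower, and Dhx58 (-0.11), Isg20 (-0.12), Irf8 (-0.23) and Stat2 (0.97) did not pass the test.

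Co-transfer sites of day 9 were compared with both. Against rat sites, with which they shared a hybridisation run, 33 of 39 tested members were lower and 1, Samhd1, was higher. All tested probe sets were called at 33.7%, with 18.1% lower and 15.7% higher. The median over the 41 members was -0.97, against -0.07 over all tested probe sets. Against mouse sites, 3 members were higher (Oasl2 at 0.60, Ifi35 at 0.53 and Cmpk2 at 0.51) and 1 was lower (Ifi27l2a at -0.78). Of all tested probe sets 7.72% were called (3.94% higher, 3.77% lower), and the share of members called was near that background. The median was 0.12 (0.00 over all). For 37 of the 39 tested members the 95% interval of this difference lay within 1 log2 unit of 0 on either side, and Ifi27l2a and Stat2 reached beyond it. Leaving out 1 array of these groups lowered the count in most fits, and the share of all tested probe sets called fell with it. By limma on the arrays of these groups alone 0 members were called, where 1.69% of all tested probe sets were. In the limma fit to all arrays 14 members had an unadjusted p under 0.05. The share of all tested probe sets at that unadjusted threshold was not computed. The comparisons of a day share arrays, so their counts are not independent of each other.

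**Figure D2:**
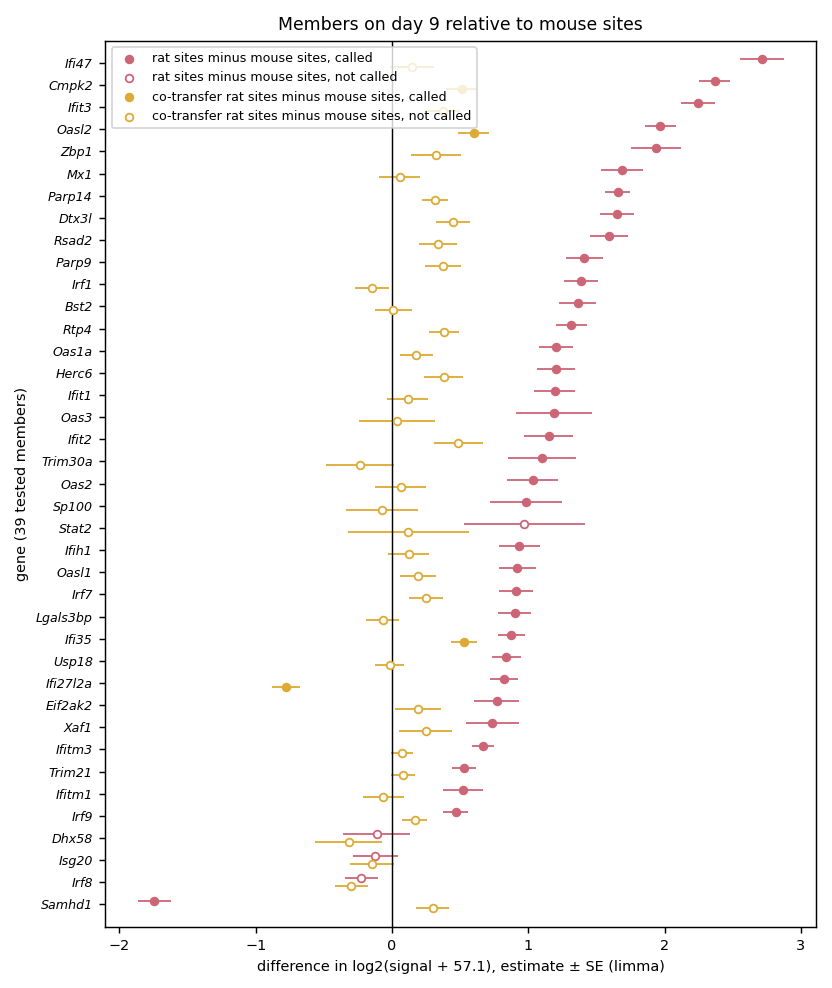
Differences on day 9 in log2(signal + 57.1), estimate ± SE from limma, of the 39 tested members in rat sites (red) and co-transfer sites (yellow) relative to mouse sites. Filled points passed an adjusted p of 0.05; red points reach 2.71 for Ifi47 and -1.74 for Samhd1, while yellow points lie between -0.78 and 0.60.

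In rat sites of day 7, 11 members were lower than in mouse sites and 2 were higher, where 24.4% of all tested probe sets were called (11.4% lower and 13% higher). The lower members were Zbp1, Irf1, Irf9, Oasl2, Ifitm1, Ifi47, Parp9, Parp14, Ifi35, Ifi27l2a and Rtp4. All 11 were among the 34 of 39 tested members higher in rat sites on day 9, an overlap that most members would show. Irf7 and Samhd1 were the higher ones. The median difference of the 41 members was -0.14 (-0.21 over the tested members alone), against 0.03 over all tested probe sets. Leaving out any 1 array of mouse or rat sites lowered the count, and the share of all tested probe sets called fell with it. When probe sets shared by several transcripts were left out, 6 of 31 tested members were called. All probe sets tested there were still called at 24.4%, so the members were then called no more often than the array as a whole.

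Co-transfer sites of day 7 had 12 members higher and 6 lower than mouse sites, with 31.2% of all tested probe sets called (17% higher and 14.2% lower). The higher ones were led by Samhd1 at 1.31 and Ifit3 at 1.31, and the lower ones by Ifi47 at -1.57 and Zbp1 at -0.89. The median was 0.21, against 0.05 over all. Without replicate 2 of the mouse sites fewer members were called, and the share of all tested probe sets called fell too.

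Between co-transfer and rat sites of day 7 few probe sets were called anywhere on the array. Only 0.967% of tested probe sets were called (0.574% higher, 0.393% lower), but 6 of the 39 tested members were called, all higher in co-transfer sites. By limma 15 members had an unadjusted p under 0.05, and the share of all tested probe sets at that threshold was not computed. The 6 called were Ifit3 at 1.27 (SE 0.11, adjusted p = 0.00121), Usp18 at 0.79, Lgals3bp at 0.70, Rtp4 at 0.69, Oasl2 at 0.69 and Ifi27l2a at 0.63. All 6 were lower in co-transfer than in rat sites on day 9, as were 33 of the 39 tested members in all. The median over the 41 members was 0.25, against 0.00 over all. Leaving out either array of rat sites lowered the count, and the share of all tested probe sets called fell with it. Without replicate 3 of the co-transfer sites 2 members were called, where 0.443% of all tested probe sets were. When only the arrays of these groups were fitted, limma called 0 members and 0.113% of all tested probe sets. Ifit3 had an adjusted p of 0.0701 in that limma fit. Ifit3 passed in 13 of 14 alternatives and Usp18 in 11 of 14. Replicate 3 of the co-transfer sites was hybridised on another date and scanner. A block for the date therefore repeats the fit without that array, and both are among the alternatives counted. The other 2 were hybridised in another run than the rat arrays, so run and group cannot be told apart here.

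**Figure D3:**
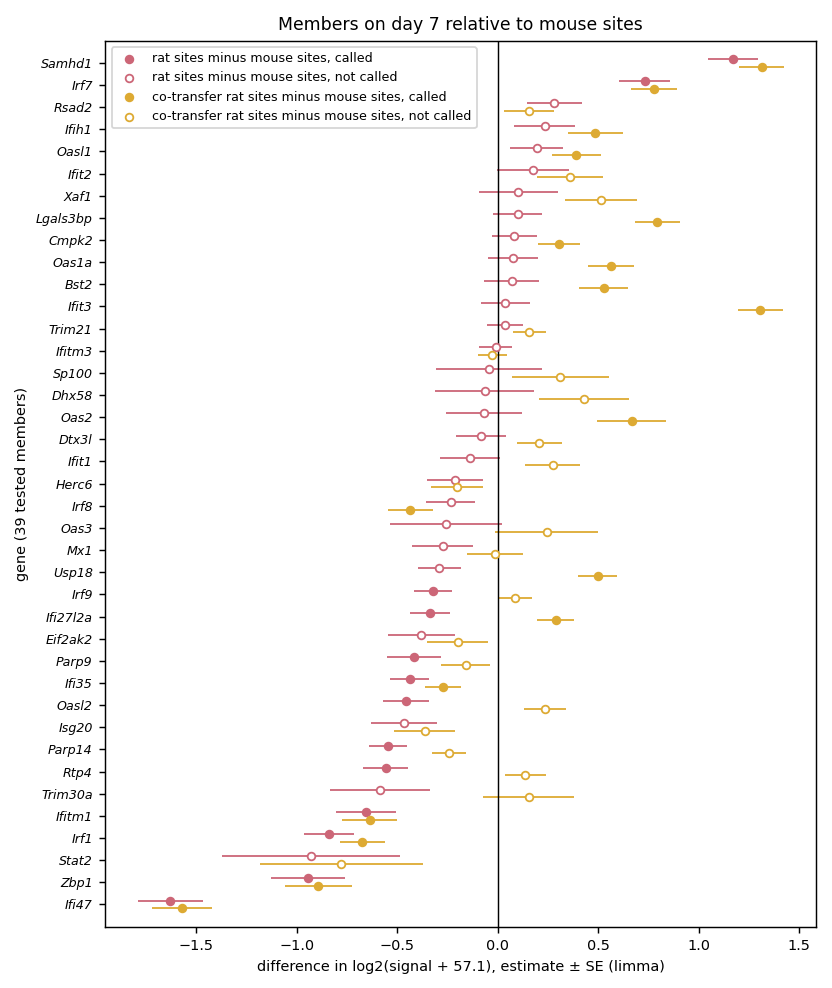
Differences on day 7 in log2(signal + 57.1), estimate ± SE from limma, of the 39 tested members in rat sites (red) and co-transfer sites (yellow) relative to mouse sites, filled where the adjusted p was under 0.05. Ifi47 lies near -1.6 in both, at -1.63 and -1.57, while Ifit3 lies at 0.04 in rat sites and 1.31 in co-transfer sites.

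From day 7 to day 9, rat sites had 37 members higher and 1 lower (Samhd1), with 39.3% of tested probe sets called (20.1% higher, 19.3% lower) and a median of 1.67. Mouse sites had 18 higher and 3 lower (44.2% called, 21.9% higher and 22.3% lower; median 0.36), and co-transfer sites 20, all higher (25.2% called, 10.8% higher and 14.4% lower; median 0.45). Over the tested members alone the medians were 1.70, 0.40 and 0.54 in rat, mouse and co-transfer sites. The medians over all tested probe sets were 0.03, 0.02 and -0.04. Of the members that changed between days in both mouse and rat sites, 17 were higher on day 9 in both, while Irf1 and Ifi47 were lower in mouse sites and higher in rat sites and Samhd1 the reverse. A test of whether the rat against mouse difference itself changed with the day called 33 members, 32 of them upward, where 32.6% of tested probe sets were called (16.5% upward, 16.1% downward), with a median of 1.18. For co-transfer against mouse sites 9 members were called, 4 upward and 5 downward, where 18.8% of tested probe sets were called (9.04% upward, 9.77% downward). The share of members called was near that background. For co-transfer against rat sites 34 were called, 33 of them downward, where 26.1% were called (12.4% upward, 13.7% downward).

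Among the sensors, which recognise foreign nucleic acid in the cytoplasm, Ifih1 and Zbp1 varied most. Ifih1, the MDA5 sensor of long double-stranded RNA, read 377 and 350.4 in mouse sites, 498 and 384 in rat sites and 546, 584 and 472 in co-transfer sites on day 7. Its day 9 signals were 889 and 690, 1487 and 1612, and 866 and 852 in mouse, rat and co-transfer sites. Day 9 rat sites lay above every other array, and the difference from mouse sites was 0.93 (SE 0.15, adjusted p = 0.00106).

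Zbp1 senses Z-form nucleic acid and can trigger necroptosis. Its signals on day 7 were 319 and 362 in mouse sites, 139.5 and 159.6 in rat sites and 195, 182 and 106 in co-transfer sites, so both kinds of rat site lay below mouse sites. The day 9 signals were 358 and 327, 1504 and 1441, and 419 and 468 in the same order of groups, and the rat sites now lay far above the other groups. The rat against mouse difference was -0.94 (SE 0.18, adjusted p = 0.00514) on day 7 and 1.94 (SE 0.18, adjusted p = 3.19e-05) on day 9. Dhx58, the LGP2 regulator of these sensors, was not called between rat and mouse sites on day 9: it ranged from 558 to 745 there and from 617 to 796 in mouse sites of day 9, with overlapping arrays.

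The transcription factors split in several ways. Irf1, an activator induced by interferon gamma, read 1642 and 1534 in mouse sites, 927 and 803 in rat sites and 1044, 924 and 959 in co-transfer sites on day 7. Its day 9 signals were 1072 and 1374, 3250.2 and 3271, and 1092 and 1095 in mouse, rat and co-transfer sites. Mouse sites were highest on day 7 and rat sites on day 9, without overlap, with rat against mouse differences of -0.84 (SE 0.12, adjusted p = 0.0012) and 1.38 (SE 0.12, adjusted p = 2.17e-05). Irf7, the main activator of type I interferon genes, had signals of 908 and 1086 in mouse sites, 1634 and 1741 in rat sites and 1662, 1633 and 1954 in co-transfer sites on day 7 and of 1087 and 1208, 2219 and 2188, and 1279.9 and 1469 on day 9. It was the only member called higher in rat than in mouse sites on both days, at 0.73 and 0.91 (adjusted p = 0.00271 and 0.000422), and the change of that difference between the days was 0.18 (SE 0.18, adjusted p = 0.492).

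Stat2 and Irf9 are parts of the complex that binds the ISRE. Stat2 read 206 and 303 in mouse sites, 187 and 50 in rat sites and 159.8, 199 and 47.1 in co-transfer sites on day 7, a spread within groups wider than that of any other tested member. On day 9 it read 234 and 166, 409.7 and 477, and 207 and 233. Rat sites were the highest on day 9 by value, but the difference from mouse sites was 0.97 (SE 0.44, adjusted p = 0.128). Irf9 ranged from 668 to 1029 outside the day 9 rat sites and reached 1303 and 1178 in them. Irf8, a factor of macrophages and dendritic cells, was higher on day 9 in all 3 kinds of site, by 0.76 in mouse sites and 0.76 in rat sites, and on that day it was called in none of the comparisons between groups.

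**Figure D4:**
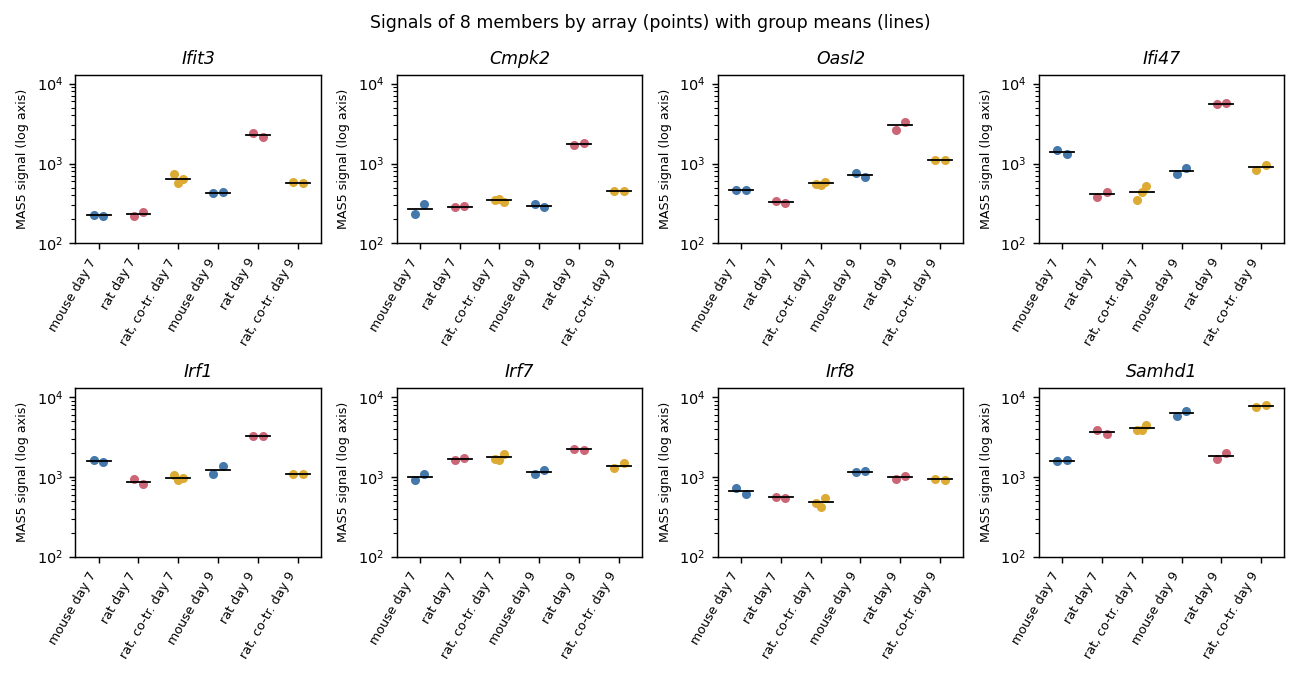
MAS5 signals (log axis) of 8 members on each array, with group means as lines, in mouse (blue), rat (red) and co-transfer (yellow) sites. Ifit3, Cmpk2, Oasl2, Ifi47 and Irf1 are highest in day 9 rat sites, Irf8 is close in all day 9 groups, and Samhd1 is lower in day 9 rat sites than in the other day 9 groups.

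The IFIT proteins bind viral RNA that lacks the host's cap marks. Ifit3 read 229 and 223 in mouse sites, 219 and 249.5 in rat sites and 735, 565 and 641 in co-transfer sites on day 7. The co-transfer arrays were all above the others, which overlapped. On day 9 the signals were 426 and 441, 2432 and 2118, and 583 and 573 in mouse, rat and co-transfer sites, with rat sites far above. Ifit3 thus was higher in co-transfer than in rat sites on day 7 and lower on day 9, at -1.87 (SE 0.12, adjusted p = 2.3e-06). The change of this difference with the day was -3.14 (SE 0.17, adjusted p = 1.36e-06).

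Ifit1, another member of the family, read 210.2 and 164 in mouse sites, 162 and 167 in rat sites and 191, 284 and 245 in co-transfer sites on day 7 and 685 and 783, 1758 and 1737, and 827 and 769 on day 9. It was higher on day 9 in every kind of site, by 1.70 in mouse, 3.03 in rat and 1.54 in co-transfer sites (adjusted p = 2.4e-05, 3.76e-07 and 4.22e-05). Ifit2 had 692 and 607 in mouse sites, 851 and 641 in rat sites and 837, 916 and 793 in co-transfer sites on day 7. The rat sites overlapped each of the other groups, and co-transfer sites lay above mouse sites. On day 9 it had 682 and 613, 1261 and 1791, and 859 and 1004, and its rat arrays were the highest but stood apart from each other. Rsad2 (viperin, which makes a nucleotide that stops viral RNA synthesis) and Cmpk2, a mitochondrial nucleotide kinase, were 1.59 and 2.37 higher in rat than in mouse sites on day 9. Cmpk2 ranged from 234 to 448 on the other arrays and read 1724 and 1817 in day 9 rat sites.

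In the OAS family, named for enzymes that make the oligoadenylate signal that activates RNase L, Oas1a, Oas2, Oas3, Oasl1 and Oasl2 were all higher in rat than in mouse sites on day 9, by 0.92 to 1.97. As given above, 17.1% of all tested probe sets were called higher there. Oasl2 read 472 and 469 in mouse sites, 335 and 320.4 in rat sites and 552, 544 and 595 in co-transfer sites on day 7, with rat sites lowest and co-transfer sites highest. The day 9 arrays gave 750.1 and 685, 2648 and 3335, and 1115 and 1118, with rat sites highest and mouse sites lowest. Of the 3 members called higher in co-transfer than in mouse sites of that day it had the largest difference, at 0.60 (SE 0.11, adjusted p = 0.0117). The kinase gene Eif2ak2 (PKR, which halts translation on double-stranded RNA) was 0.77 higher in rat than mouse sites on day 9. The exonuclease gene Isg20 had overlapping day 9 groups, with all 6 arrays between 2192 and 3243.

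Samhd1, which breaks down the deoxynucleotides that viruses need, went the other way. On day 7 it read 1559 and 1639 in mouse sites, 3901 and 3451 in rat sites and 3848, 3880.4 and 4462 in co-transfer sites, so mouse sites were lowest. By day 9 the signals were 5823 and 6661, 1679.5 and 1971, and 7509.7 and 7837, and now rat sites were lowest, without overlap. The rat against mouse difference turned from 1.17 (SE 0.12, adjusted p = 0.000159) to -1.74 (SE 0.12, adjusted p = 3.74e-06). Of its 5 tested probe sets, 4 were lower in rat sites on day 9, at -0.91 to -2.19, and the other read -0.20 with an adjusted p of 0.816. That probe set was higher on day 9 than on day 7 in rat sites, at 1.58 with an adjusted p of 0.0433, where the one used here was lower at -0.99. It was the only call of opposite direction among the 13 members with several tested probe sets, over all 12 comparisons.

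The next group holds proteins that trap virus at membranes and large or immunity-related GTPases. Ifi47 had the widest range of any member. It read 1468 and 1321 in mouse sites, 384 and 441 in rat sites and 347, 444 and 516 in co-transfer sites on day 7, with mouse sites far above both kinds of rat site. By day 9 its signals were 731 and 874, 5489 and 5645, and 838 and 950.3, with rat sites far above the others. The rat against mouse difference was -1.63 (SE 0.16, adjusted p = 0.000118) on day 7 and 2.71 (SE 0.16, adjusted p = 1.22e-06) on day 9.

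Bst2 (tetherin, which holds budding virus at the cell surface) read 644 and 614 in mouse sites, 638 and 688 in rat sites and 912, 1077 and 822 in co-transfer sites on day 7. Its day 9 signals were 1120.4 and 965, 2585 and 2959, and 1098 and 1000.1 in mouse, rat and co-transfer sites, with the rat sites highest and the other groups overlapping. Ifitm3, which blocks entry of virus from endosomes, had the brightest probe set of its group, with 13977 and 14329 in mouse sites, 14259 and 13843 in rat sites and 13492, 13733 and 14482 in co-transfer sites on day 7. The day 9 signals were 13017 and 13015, 20437 and 20936, and 13553 and 13785. It was called in no comparison without the day 9 rat sites, which were higher than mouse sites by 0.67 (SE 0.08, adjusted p = 0.000165).

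Ifitm1, a related entry inhibitor, was highest in day 7 mouse sites at 7011 and 7155 and was -0.66 in rat against mouse sites of that day and 0.52 on day 9. Mx1, a GTPase that acts on influenza virus in the nucleus, read 496 and 460.4 in day 9 rat sites and 75.8 to 133 elsewhere. Mx2 was not tested and read 75.6 and 251 in day 9 rat sites, arrays that differed widely, against 10.3 to 24.1 on the others.

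Genes of ubiquitin-like modification and ADP-ribosylation were all higher in day 9 rat sites: the 7 measured members passed the test against mouse sites, at 0.53 (Trim21, an antibody receptor in the cytosol) to 1.65 (Parp14). Of all tested probe sets 17.1% were called higher in that comparison. Usp18, which removes ISG15 from proteins and damps interferon receptor signalling, read 296 and 354 in mouse sites, 254 and 255 in rat sites and 435, 527 and 484 in co-transfer sites on day 7, with co-transfer sites highest. Its signals on day 9 were 1117 and 1144, 2076 and 2059, and 1100 and 1135, and rat sites were highest while mouse and co-transfer sites overlapped. Parp14, a mono-ADP-ribosyltransferase, read 709.6 and 727 in mouse sites, 460.2 and 487 in rat sites and 619, 629 and 551 in co-transfer sites on day 7, with mouse sites highest. Its day 9 signals were 751 and 780.3, 2519.7 and 2545, and 1011 and 926. The difference between rat and mouse sites turned from -0.55 to 1.65 (adjusted p = 0.00253 and 8.56e-07).

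Dtx3l, a ubiquitin ligase that works in a complex with Parp9, read 876 and 815 in mouse sites, 749.7 and 842 in rat sites and 1016, 1028 and 914 in co-transfer sites on day 7. Day 9 signals were 779 and 834, 2558 and 2741, and 1263 and 994, and the rat arrays stood well above the rest. Its partner Parp9 was 1.41 higher in rat than in mouse sites of day 9, against 1.65 for Dtx3l. Herc6, the ISG15 ligase of the mouse, and Trim30a, a ubiquitin ligase, were higher by 1.20 and 1.10. Socs1, which inhibits JAK kinases and so closes the feedback loop, was too dim to be tested. It read 83.4 and 5.6 in mouse sites, 48.2 and 49.8 in rat sites and 78.4, 31.8 and 82.6 in co-transfer sites on day 7 and 63.3 and 7.2, 126 and 44.4, and 37 and 21.2 on day 9, with arrays of a group as far apart as the groups.

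The remaining members are interferon-induced genes of mixed function, and all 6 with a probe set were higher in rat than in mouse sites on day 9, at 0.74 to 1.32. Over all tested probe sets the share called higher was 17.1%. Ifi35 read 3531 and 3757 in mouse sites, 2651 and 2703 in rat sites and 2983, 3286 and 2780.3 in co-transfer sites on day 7. The signals of day 9 were 3283 and 3140, 5903 and 5979, and 4575 and 4734, with the 3 groups apart in the order mouse, co-transfer, rat. It was 0.53 (SE 0.10, adjusted p = 0.01) in co-transfer against mouse sites.

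Ifi27l2a, a mitochondrial protein of the ISG12 family, read 1496 and 1350.1 in mouse sites, 1159 and 1069 in rat sites and 1642, 1833 and 1778 in co-transfer sites on day 7, with co-transfer sites highest and rat sites lowest. On day 9 it read 2924 and 2656, 5127 and 4811, and 1556 and 1643, with rat sites highest and co-transfer sites lowest. It was the only member called lower in co-transfer than in mouse sites of day 9, at -0.78 (SE 0.10, adjusted p = 0.00148). Rtp4, a receptor transporter protein that also restricts viruses, read 1508 and 1672 in mouse sites, 999.9 and 1125 in rat sites and 1676, 1770.3 and 1811 in co-transfer sites on day 7 and 2252 and 1869, 5193 and 5195, and 2655 and 2725 on day 9. Rat sites were lowest on day 7 and highest on day 9. Xaf1, which promotes cell death, and Lgals3bp, a secreted glycoprotein, were 0.74 and 0.90 higher in rat than in mouse sites on day 9, and Sp100, a nuclear body protein, was 0.98 higher.

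Split by the promoter letters, 11 of the 13 members with an ISRE match and a probe set were higher in rat than in mouse sites on day 9, with a median of 1.10 (Socs1 among the 13 was not tested), and 15 of the 18 without one were higher and 1 was lower, with a median of 0.91, where 17.1% of all tested probe sets were higher and 14.4% lower. On day 7 limma called 0 of the 13 with a match in rat against mouse sites (2 had an unadjusted p under 0.05), at a median of 0.04. Of the 18 without one 6 were lower and 2 higher, at a median of -0.15, where 11.4% of all tested probe sets were lower and 13% higher. The difference between these promoter classes was not tested.

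Genes upstream of the set were followed in lists chosen for this purpose. Of 13 interferon genes, 9 had a probe set and 0 passed the filter. The type I genes Ifnb1 and Ifna5 read 56.2 to 256 and 49.3 to 227 over all arrays, and the arrays of a group differed widely. Ifng, interferon gamma, read 213 and 232 in day 9 rat sites and 3.1 to 78.7 on the other 11 arrays, without a test.

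Among 9 tested receptor and kinase genes, 4 were higher in rat than in mouse sites on day 9, where 17.1% of all tested probe sets were. They were led by Ifngr2, a chain of the interferon gamma receptor, at 0.99 (SE 0.18, adjusted p = 0.00249), and Jak2 at 0.94 (SE 0.13, adjusted p = 0.000483). The kinase gene Jak1 was lower at -0.66. In rat against mouse sites of day 7 the only call among the 9 was Il10rb, lower at -0.53. As 24.4% of all tested probe sets were called there, that count was not above the background. Of 12 tested genes of nucleic acid sensing, 5 were higher and 2 lower in day 9 rat sites, against 17.1% and 14.4% of all tested probe sets. Tmem173 (STING) was at 1.10 and Mb21d1 (the DNA sensor cGAS) at 1.01. In co-transfer against mouse sites of day 9, where 7.72% of all tested probe sets were called, 1 of the 12 was called, a share near that background: Tlr3, an endosomal receptor of double-stranded RNA, at 1.48 (SE 0.09, adjusted p = 8e-06).

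The IRG and GBP genes, GTPases of cell-autonomous defence that interferon gamma induces strongly, followed the pattern of Ifi47. All 8 measured were lower in rat than in mouse sites on day 7 (median -1.55), where 11.4% of all tested probe sets were lower. All 8 were higher on day 9 (median 2.52), where 17.1% were higher, the largest being Iigp1 at 3.76 (SE 0.15, adjusted p = 1.02e-07). Co-transfer sites were lower than mouse sites in 7 of the 8 on day 7 and higher in 4 on day 9. Over all tested probe sets these shares were 14.2% and 3.94%. Iigp1 read 1149 and 829 in mouse, 13955 and 13969 in rat and 2108 and 2091 in co-transfer sites of day 9, with the 3 groups apart.

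Marker genes of several cell types were followed in the same groups. In rat against mouse sites of day 9, 17.1% of all tested probe sets were called higher and 14.4% lower. On day 9 all 9 tested epithelial markers were higher in rat than in mouse sites, although Krt20 was tested only because it passed the filter in those rat sites. The list had a summed signal of 85300 to 89744 in rat, 17878 to 18202 in mouse and 9831 to 10386 in co-transfer sites. Smooth muscle markers were higher in 5 of 6, with sums of 70313 to 72432, 48951 to 51075 and 48552 to 50806. All 6 decidual stroma markers were lower, with 19161 to 19818 in rat sites, 44068 to 50222 in mouse sites and 57238 to 58849 in co-transfer sites. Natural killer markers, whose cells secrete interferon gamma, were lower in 5 of 6 tested, at 7932 to 8091, 20360 to 22478 and 13155 to 13709.

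Macrophage markers were higher in 2 and lower in 4 of 9 in rat against mouse sites of day 9, and Fcgr1 among the 9 had passed the filter through the day 9 rat sites alone. They had sums of 18339 to 20085 in rat, 20851 to 21739 in mouse and 18959 to 19739 in co-transfer sites, so the rat and co-transfer arrays overlapped. Their mean log2(signal + 57.1), on which bright genes weigh less, was 10.54 to 10.58 in rat, 10.47 to 10.53 in mouse and 10.17 to 10.21 in co-transfer sites, a different order with rat sites highest. Against rat sites, co-transfer sites had 5 of the 9 lower and 2 higher, where 18.1% of all tested probe sets were lower and 15.7% higher. Trophoblast markers were lower in 3 of 4 tested and endothelial ones in 3 of 5, while of 3 neutrophil markers 1 was higher and 1 lower. Trophoblast is embryo tissue, and whether the mouse probes detect its rat transcripts was not checked. On day 7 epithelial markers were lower in rat than in mouse sites in 7 of 9, with sums of 11408 to 11665 and 41944 to 42678, and 11097 to 11622 in co-transfer sites. Macrophage markers were lower in 3 of 9 (10051 to 10302 in rat, 15250 to 15348 in mouse and 10021 to 10450 in co-transfer sites) and neutrophil markers in 2 of 3 (1392 to 1410, 5239 to 5255 and 1368 to 1448). Decidual stroma markers were higher in 4 of 6 (67140 to 67989, 41229 to 42367 and 69136 to 72552). Natural killer, smooth muscle and endothelial markers were each lower in 2, of 6, 6 and 5 tested. Over all tested probe sets 11.4% were called lower and 13% higher in rat against mouse sites of day 7. No marker gene of these lists had a signal of 0. The part of these shifts in the differences of the interferon response genes was not tested.

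**Figure D5:**
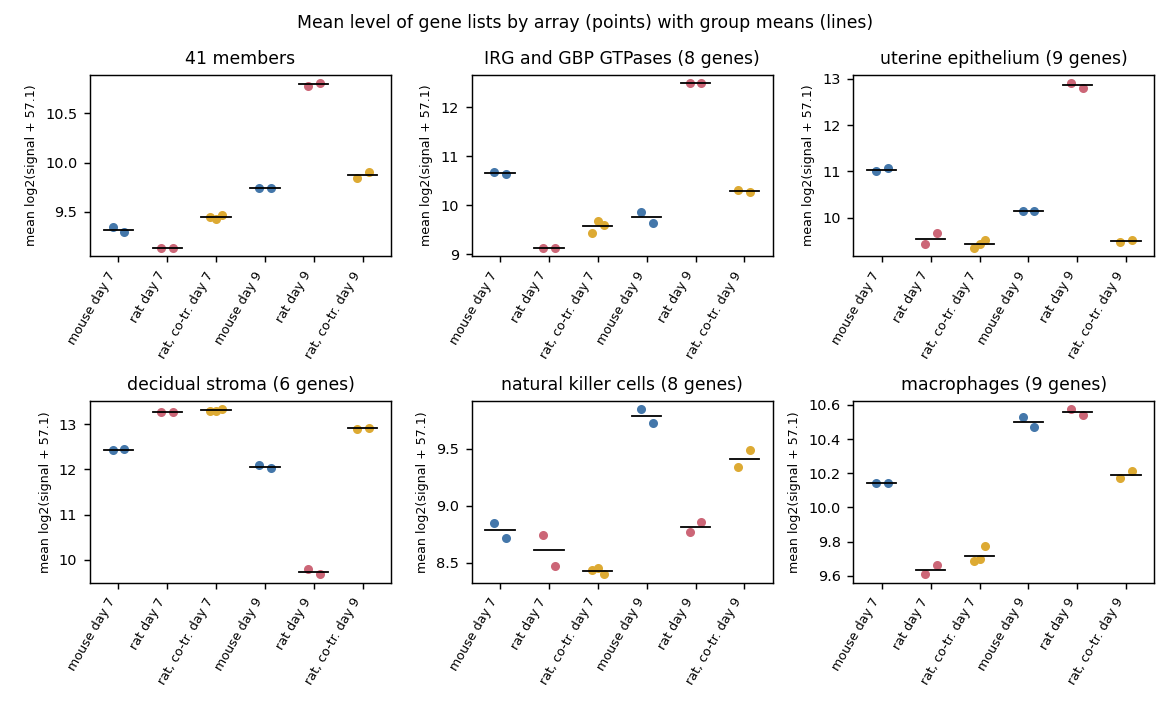
Mean log2(signal + 57.1) of the 41 members and of 5 other gene lists on each array (points), with group means (lines), in mouse (blue), rat (red) and co-transfer (yellow) sites. The members, the IRG and GBP genes and the epithelial markers are highest in day 9 rat sites, where the decidual stroma markers are lowest.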

How the data were processed

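The deposited values are MAS5 signal intensity values on a linear scale, 1 per probe set, MAS5 being named in the submitters' processing notes. The values show that the authors had scaled each array to a common trimmed mean before deposit. The version and the settings of MAS5 are not given in the sources used here. Other deposited files held instrument settings per the file headers, from which date, scanner and run were taken. Gene symbols came from the platform annotation, with 34958 probe sets naming 1 gene, 932 several and 9211 none, and promoter sequences from RefSeq.

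Signals became log2(signal + 57.1), the 25th percentile of all values being the pseudocount, so differences of dim genes are understated. Tests covered the 22138 probe sets that exceeded the 60th percentile of signals on 2 or more arrays, 64 controls being left out. A model of 6 group means for the 13 arrays was fitted by limma (version 3.58.1, R version 4.3.3) with lmFit, then eBayes (7 residual and 2.71 prior degrees of freedom). Two-sided p-values of the 9 pairwise comparisons and 3 interactions were Benjamini-Hochberg adjusted, each comparison on its own. A call is an adjusted p under 0.05. The fit was tested on simulated data. The number of arrays limits the precision.

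The members and all gene lists were chosen with earlier results of these data known. Array values are given for up to 2 members of each role with the widest range of group means and for the 1 with the highest mean. Others are given where most of the set was called and they were not, and single values of Cmpk2, Rsad2, Irf9, Ifitm1, the Mx genes, Jak1 and the interferon genes were chosen after their values were seen. Alternatives were another pseudocount, no filter, quantile normalization, blocks, smaller fits and each array left out.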

Additional observations from a re-analysis of the deposited data

Results flagged for a closer look

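The difference between rat and mouse sites changed between day 7 and day 9 for 33 of the 39 tested members, with 32.6% of all tested probe sets called. By size these were led by Ifi47, where it moved by 4.34 on the log2 scale, by Samhd1 at -2.91 and by Zbp1 at 2.88 (limma interaction, adjusted p = 5.98e-07, 1.33e-06 and 2.29e-05).

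The difference between co-transfer and mouse sites changed between the days for 9 members, with 18.8% of all tested probe sets called. The share of members called was near that background. Ifi47 moved by 1.72 and Zbp1 by 1.21, both from below mouse sites on day 7, and Ifi27l2a by -1.07, from above mouse sites to below them.

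The difference between co-transfer and rat sites changed between the days for 34 members, with 26.1% of all tested probe sets called. Ifit3 moved by -3.14, Ifi47 by -2.62 and Ifi27l2a by -2.23. These 3 tests share the arrays of the groups they have in common. No group had 4 or more arrays, so single arrays were not screened as outliers.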

How the results depend on the processing

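Of 175 recomputed counts of called members, 158 stayed within 1.5 times the reported count. The count of 6 in co-transfer against rat sites on day 7 fell to 2 with no filter on low values, with the replicate number as a block and with the hybridisation date as a block, and to 0 with only the arrays of the groups compared, which also took the 4 of co-transfer against mouse sites on day 9 to 0. Without probe sets shared by several transcripts 31 members were tested. Rat against mouse sites of day 7 then gave 6, where 24.4% of all tested probe sets were called. Co-transfer against mouse sites of day 9 gave 1, where 6.50% were called.

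With 1 array left out, a lone array being assumed to vary like the other groups, the counts ran from 7 to 9 for rat against mouse, 11 to 16 for co-transfer against mouse and 1 to 6 for co-transfer against rat sites on day 7. On day 9 they ran from 30 to 32, 1 to 5 and 27 to 31. For the change between days they ran from 19 to 21 in mouse, 35 to 36 in rat and 15 to 19 in co-transfer sites, and for the interactions from 29 to 32, 8 to 10 and 28 to 34. The share of all tested probe sets called also moved in these fits, mostly downward. For the co-transfer against mouse interaction quantile normalization gave 5 higher and 4 lower in place of 4 and 5. Usp18 lost its call and Herc6 gained one.

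Same-numbered arrays showed no strong shared deviation: over 15 pairs of groups r ran from -0.21 to 0.09. With 2 or 3 arrays in a group this cannot tell whether the numbers pair animals or preparations. The replicate block moved no count by over 1.5 times other than the one given above. Fits without the day 7 mouse sites or without the day 9 rat sites were added after seeing the data. Of 3559 recomputed differences of single members called before or after the change, 307 lost the call, 41 gained it and 0 turned sign. Of 163 recomputed medians over the tested members, 34 moved by more than the SD between arrays of a group (0.0531), most often with the larger pseudocount, and 1 turned sign: the co-transfer against mouse interaction went from 0.08 to -0.08 without probe sets shared by several transcripts. In every alternative run 27 members stayed called for rat against mouse sites on day 9, 5 on day 7, and 0 for co-transfer against rat sites on day 7. The 2 to 3 arrays of a group limit what small differences could be seen.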

Other observations

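Several members lie next to each other in the genome, by the gene order of RefSeq. Ifit2 and Ifit3 are neighbours on chromosome 19. In co-transfer against rat sites of day 7 Ifit3 differed by 1.27 and Ifit2 by 0.18 (adjusted p = 0.00121 and 0.678), and the difference between them was not tested. Rsad2 and Cmpk2 are neighbours on chromosome 12. From day 7 to day 9 in mouse sites Rsad2 differed by 1.10 and Cmpk2 by 0.12 (adjusted p = 0.0002 and 0.425), while in rat sites both were higher by 2.41 and 2.40.

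Parp14, Dtx3l and Parp9 lie in a row on chromosome 16 and were higher in rat than in mouse sites on day 9 by 1.65, 1.65 and 1.41. On day 7 the same differences were -0.55, -0.08 and -0.42, and Dtx3l did not pass the test (adjusted p = 0.687). Ifitm1 and Ifitm3, neighbours on chromosome 7, differed by -0.66 and -0.01 in rat against mouse sites on day 7 (adjusted p = 0.011 and 0.943).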
